A study of Mus musculus with 6 samples.

Results

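Polycomb proteins and other enzymes that write, erase or read marks on histones were followed as a group of 39 genes in the RNA of mouse oocytes with and without Khdc3. The genes were chosen by symbol, and all 39 were found among the 53656 symbols of the expression table. They were taken in classes: 13 Polycomb genes, 14 histone methyltransferases, 6 demethylases, 4 deacetylases, and 2 others, an acetyltransferase and a chromatin remodeller. The study held 6 RNA-seq libraries, 3 from wild-type oocytes (WT) and 3 from Khdc3-null oocytes (knockout, KO), and asked how the oocyte transcriptome differs between the genotypes. The oocytes were picked by hand out of ovaries. Strain, age, oocyte stage and the number of oocytes or animals behind a library are not given in the sources used here. The p-values therefore cover only how far these libraries spread, which may be technical. Khdc3 (Filia) belongs to the subcortical maternal complex, a protein assembly of the egg.

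Histone marks are set and removed by dedicated enzymes. Polycomb repressive complex 2 (PRC2) methylates lysine 27 of histone H3, Polycomb repressive complex 1 (PRC1) attaches ubiquitin to histone H2A, and both keep developmental genes silent. In the growing mouse oocyte, PRC2 lays down broad domains of H3K27 methylation, some of which are inherited by the embryo, while the demethylase Kdm1b and the methyltransferase Kmt2b act around the time at which the oocyte genome acquires its DNA methylation. The mRNAs of many such enzymes are stored in the oocyte and used after fertilisation.

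Khdc3 itself stood at 423 to 502 RPKM in the WT libraries and at 0.113 to 0.224 RPKM in the KO libraries, so its level matched the label in all 6. RPKM is a read number scaled by gene length and library size, and the libraries rested on 34640170 to 43343444 reads. On principal component 2 (18.1% of the variance), KO replicate 1 was separated from KO replicates 2 and 3. Markers of the oocyte were abundant: 16 genes summed to 19683 to 21071 RPKM in WT and 19138 to 19498.5 RPKM in KO. All KO sums thus lay below all WT sums. Markers of other ovarian cells had lower sums but were present: none of the genes in the 6 lists was at 0 in all libraries. The sum of 20 granulosa and cumulus markers was 184 to 320 RPKM in WT and 367 to 483 RPKM in KO. Inha made up the largest part, at 203, 197 and 104 RPKM in WT and 227, 242 and 310 RPKM in KO (adjusted p = 0.200, limma). The 14 stromal, smooth muscle and surface epithelial markers summed to 29.4 to 36.5 RPKM in WT and 38.2 to 49.9 RPKM in KO. All KO values lay above all WT values for 4 of 16 tested granulosa, 4 of 9 stromal and 1 of 2 leukocyte markers. The same held for 1 of 16 oocyte and 1 of 3 endothelial markers, beside 13.5% of all tested genes. All KO values lay below all WT values for 3 oocyte, 1 granulosa, 1 stromal and 1 endothelial marker of those tested, beside 1500 of 12272 tested genes. Of the markers, 3 were called, all higher in KO: Hmgn5 (adjusted p = 0.0165) and Nr5a1 (0.0389) of the granulosa list and Acta2 (0.0337) of the stromal list. These are 2 of 16 tested granulosa and 1 of 9 tested stromal markers, beside 2.74% of all tested genes, 1.6% higher in KO. At an unadjusted p under 0.05 (limma) stood 8 of 16 granulosa (7 higher) and 9 of 9 stromal markers (8 higher). So did 3 of 16 oocyte, 1 of 4 theca, 2 of 3 endothelial, 1 of 2 leukocyte and 0 of 3 erythroid markers. The share of all tested genes was 19%. The smallest adjusted p of the lists without a called marker was 0.102 for Dazl (oocyte), 0.216 for Hsd3b1 (theca), 0.149 for Tek (endothelial), 0.131 for H2-Aa (leukocyte) and 0.741 for Hbb-bt (erythroid). The other sums were 24.0 to 132 RPKM in WT and 103 to 125 RPKM in KO for 7 theca markers, 19.03 to 20.1 and 16.3 to 20.3 RPKM for 6 endothelial markers, 2.65 to 5.26 and 7.24 to 16.2 RPKM for 6 leukocyte markers, and 17.5 to 73.2 and 8.89 to 71.6 RPKM for 6 erythroid markers. Somatic cells express many chromatin enzymes too, and the part of such cells in the levels below was not tested. In bulk RNA, fewer cells of a type and less RNA per cell cannot be told apart.

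The promoters of 3 of these genes are shown because they span the range of levels and hold the gene with the smallest p-value in the comparison of genotypes. Each is the RefSeq window (GRCm38.p6) from 250 bases before to 50 after the start, 5′ to 3′ on the strand of the gene, with each CG dinucleotide in capitals. Several proteins of the group, among them Kdm2b and Kmt2a, bind unmethylated CG through a CXXC zinc finger.
Pcgf6 (chr19:47050857-47051156, minus strand): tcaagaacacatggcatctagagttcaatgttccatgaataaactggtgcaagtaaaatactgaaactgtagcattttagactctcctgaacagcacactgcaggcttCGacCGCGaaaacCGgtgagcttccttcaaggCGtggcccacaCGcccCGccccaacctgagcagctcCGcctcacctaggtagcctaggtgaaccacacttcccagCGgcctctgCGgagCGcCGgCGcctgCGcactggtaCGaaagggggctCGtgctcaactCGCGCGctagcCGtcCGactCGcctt
Sirt1 (chr10:63338986-63339285, minus strand): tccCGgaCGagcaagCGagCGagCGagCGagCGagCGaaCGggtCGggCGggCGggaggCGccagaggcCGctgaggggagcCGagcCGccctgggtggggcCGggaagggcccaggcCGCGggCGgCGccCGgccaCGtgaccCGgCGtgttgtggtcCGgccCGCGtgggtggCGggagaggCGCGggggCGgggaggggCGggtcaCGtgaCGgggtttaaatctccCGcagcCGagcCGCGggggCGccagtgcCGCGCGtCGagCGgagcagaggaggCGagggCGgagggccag
Kmt2a (chr9:44881240-44881539, minus strand): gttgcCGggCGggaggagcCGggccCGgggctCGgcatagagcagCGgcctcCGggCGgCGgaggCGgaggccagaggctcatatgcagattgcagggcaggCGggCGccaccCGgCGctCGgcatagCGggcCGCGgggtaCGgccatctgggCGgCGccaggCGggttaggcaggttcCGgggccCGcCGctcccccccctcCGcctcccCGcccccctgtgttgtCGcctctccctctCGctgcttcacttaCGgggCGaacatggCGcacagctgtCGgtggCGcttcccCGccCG
The windows hold 22 CG in Pcgf6, 47 in Sirt1 and 36 in Kmt2a. Windows were listed for 31 of the 39 genes, with a median of 30 CG per gene (range 8.5 to 49, averaged where a gene has several windows). At 20 CG or more stood 25 of the 31 genes (80.6%), compared with 55.9% of 7923 tested genes and 26.3% of all 27025 genes with a window. CG reads the same on both strands, and the count is a description of the letters, not of methylation or binding. Among the 3 shown, the count did not follow the level, since Kmt2a was the lowest of the 39 genes and Pcgf6 the second highest.

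The means of the 39 genes ran from 0.156 to 334 RPKM. Averaged over the 6 libraries, 2 genes lay above 100 RPKM, 19 between 10 and 100, 13 between 1 and 10 and 5 below 1. The 2 highest were the Polycomb genes Pcgf1 and Pcgf6, and the 5 lowest were 4 methyltransferases and 1 demethylase (Suv39h1, Setd1b, Prdm9, Kmt2a and Kdm5b). These 5 missed the filter of 1 RPKM or more in at least 3 libraries, so 34 of the 39 genes were tested between genotypes. Replicates varied little, with a median coefficient of variation of 6.37% in WT and 7.85% in KO for the 34 genes, beside 8.19% and 10.53% for all 12272 tested genes.

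**Figure D1:**
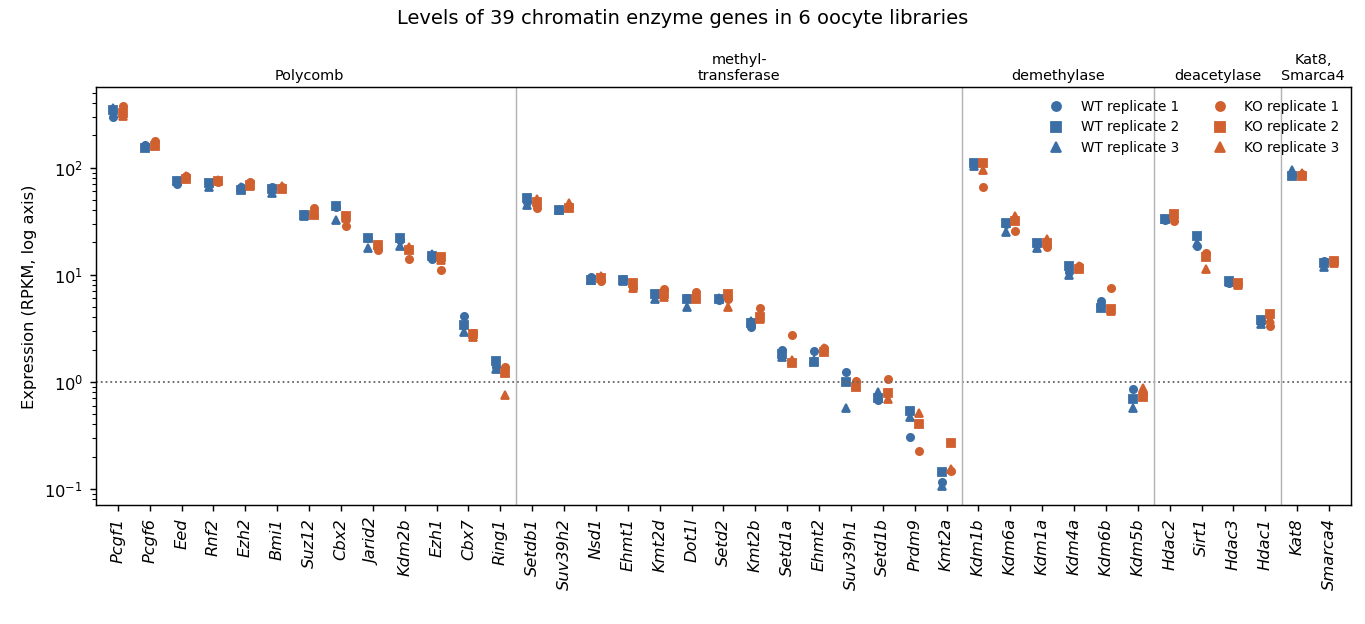
Expression of the 39 genes in each of the 6 libraries (RPKM, log axis), grouped by class and ordered within each class by the mean, with WT in blue, KO in orange and a dotted line at 1 RPKM. Differences between genes are far larger than those between genotypes, from Pcgf1 at 300.0 to 373 RPKM to Kmt2a at 0.105 to 0.270 RPKM.

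Between genotypes, none of the 34 was called, which needed an adjusted p under 0.05 (limma on log2(RPKM + 1), adjusted over all tested genes), while 2.74% of all tested genes were, 1.6% higher and 1.14% lower in KO. At an unadjusted p under 0.05 stood 3 genes, Sirt1 and Kdm2b lower and Eed higher in KO, which is 8.82% of the 34 and compares with 19% of all tested genes, 10.4% higher and 8.59% lower in KO. Of the 34 changes, 20 were positive and 14 negative. Their median was a log2 change of 0.04, beside 0.01 for all tested genes, and the median size without regard to sign was 0.11, beside 0.12. The KO and WT values did not overlap in 9 of the 34 genes, a share of 26.5%, near the 25.8% of all tested genes. These were 5 of 13 Polycomb genes, 3 of 10 methyltransferases, 0 of 5 demethylases, 1 of 4 deacetylases and 0 of 2 others. Limma with library weights called 1 of 34 members, Sirt1, beside 5.39% of all genes in that fit. Limma voom on recovered reads called 1 of 32 members, again Sirt1, beside 3.28% of its 9258 genes.

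The data bounded the size of possible changes. For all 21 genes at 10 RPKM or more, the 95% interval of the difference, which is not adjusted for the number of genes, lay within a log2 change of -1 to 1. The same held for all 34 tested members and for 11713 of the 12272 tested genes. The median interval of the 21 genes at 10 RPKM or more reached 0.20 to either side of the estimate, and the widest, that of Kdm1b, 0.38. For genes near 1 RPKM, the scale of log2(RPKM + 1) understates a change.

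**Figure D2:**
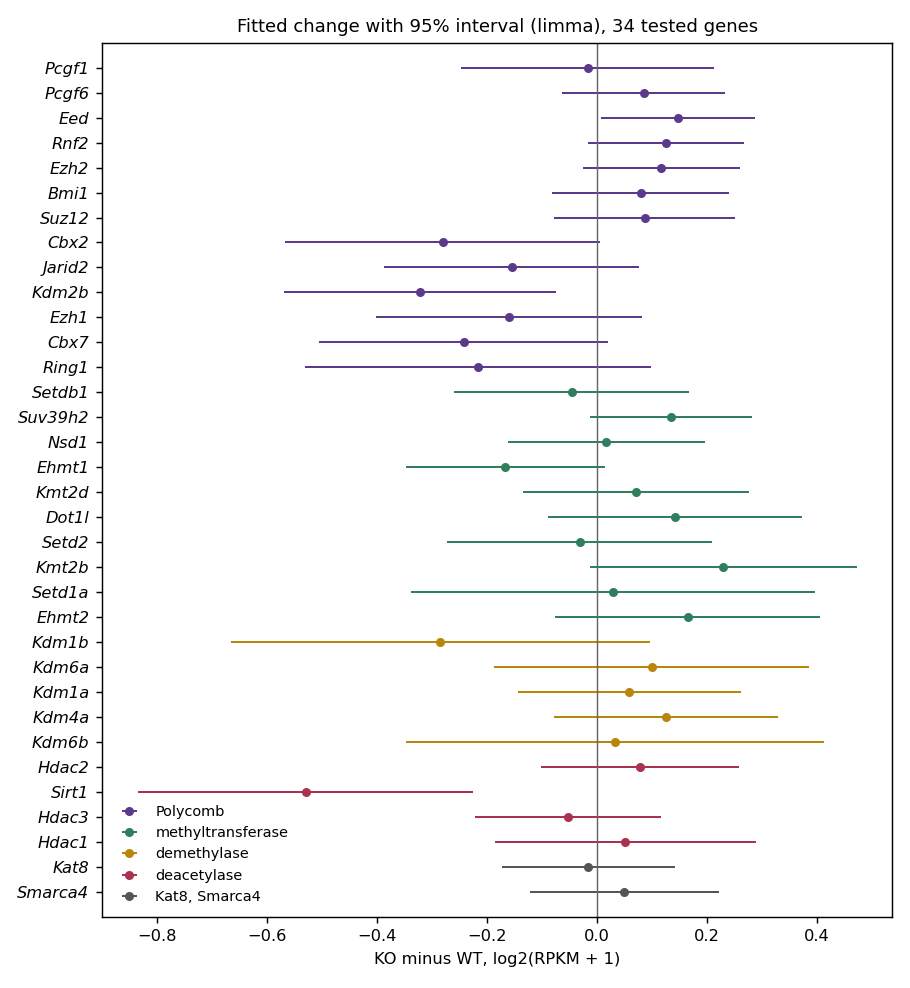
Fitted difference between KO and WT on the log2(RPKM + 1) scale with its 95% interval (limma, 3 libraries per genotype) for the 34 tested genes, coloured by class; values right of 0 are higher in KO. The intervals of 3 genes exclude 0, those of Sirt1, Kdm2b and Eed, and none of the 34 genes passed after adjustment.

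Among Polycomb genes, the core subunits of PRC2 were well expressed. Ezh2, the main catalytic subunit, had 65.4, 62.3 and 65.8 RPKM in WT replicates 1, 2 and 3 and 73.2, 69.5 and 67.4 RPKM in KO replicates 1, 2 and 3. All 3 KO values lay above the WT values, but the log2 change was 0.12 ± 0.06 (SE) with an adjusted p of 0.347. Eed, which binds the methylated histone tail and stimulates the enzyme, stood at 70.3, 75.1 and 74.6 RPKM in WT and at 82.7, 78.4 and 82.8 RPKM in KO. The groups were again apart, and the log2 change was 0.15 ± 0.06 (SE; unadjusted p = 0.0411, adjusted p = 0.242). Suz12, the scaffold subunit, stood at 36.2 ± 0.960 RPKM in WT against 38.6 ± 2.73 RPKM in KO (n = 3 each, SD; adjusted p = 0.547). The alternative catalytic subunit Ezh1 was lower than Ezh2, at 13.9, 14.8 and 15.6 RPKM in WT and 11.2, 14.5 and 13.9 RPKM in KO (log2 change -0.16 ± 0.10, SE; adjusted p = 0.444). Its lowest value was in KO replicate 1, and of the other 2 KO values 1 lay within and 1 just below the WT range. Jarid2, a cofactor that guides PRC2 to chromatin, had 20.5 ± 2.51 RPKM in WT against 18.2 ± 1.11 RPKM in KO (n = 3 each, SD; adjusted p = 0.438).

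In PRC1, the highest members were Pcgf1 and Pcgf6, which define variant complexes that lack Polycomb chromobox proteins such as Cbx2 and Cbx7. Pcgf1 stood at 300.0, 346 and 363 RPKM in WT and 373, 321 and 303 RPKM in KO, ranking 106 among all genes in WT. The groups overlapped throughout (log2 change -0.02, 95% interval -0.25 to 0.21). Pcgf6 stood at 162, 153 and 158 RPKM in WT and 177, 158 and 168 RPKM in KO (log2 change 0.08 ± 0.06, SE; adjusted p = 0.511). Bmi1, the counterpart of Pcgf1 and Pcgf6 in canonical PRC1, was at 62.0 ± 4.07 RPKM in WT against 65.5 ± 2.19 RPKM in KO (n = 3 each, SD).

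The catalytic RING subunits were unequal. Rnf2, also called Ring1B, had 69.8, 71.3 and 65.4 RPKM in WT and 73.1, 75.5 and 76.7 RPKM in KO, while its relative Ring1 had 1.39, 1.58 and 1.32 RPKM in WT and 1.37, 1.21 and 0.747 RPKM in KO. The KO values of Rnf2 lay above all WT values (log2 change 0.13 ± 0.06, SE; adjusted p = 0.317). Those of Ring1 overlapped WT through replicate 1 (log2 change -0.22 ± 0.14, SE; adjusted p = 0.425). In KO replicate 3, the lowest, Ring1 rested on 105 reads.

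Kdm2b and the chromobox genes are among the subunits that bring PRC1 to chromatin. Kdm2b, whose zinc finger tethers the Pcgf1 complex to CG-rich DNA and which is also a histone demethylase, stood at 21.2, 21.9 and 18.7 RPKM in WT and 14.0, 17.0 and 18.1 RPKM in KO. All KO values lay below the WT values, the highest of them close to the lowest WT value, and the log2 change was -0.32 ± 0.11 (SE; unadjusted p = 0.017, adjusted p = 0.166). Without KO replicate 1, its lowest library, the change was -0.22 (adjusted p = 0.209). The chromobox gene Cbx2, which reads H3K27 methylation, had 39.7 ± 6.06 RPKM in WT against 32.4 ± 3.37 RPKM in KO (n = 3 each, SD; log2 change -0.28 ± 0.12, SE; adjusted p = 0.272), with overlapping groups. Cbx7, another chromobox gene, had 3.49 ± 0.575 and 2.77 ± 0.125 RPKM (adjusted p = 0.298), without overlap. Within the class, 6 of the 13 changes were positive and 7 negative, none was called, and the median was -0.02. The 7 negative ones were Pcgf1, Ezh1, Ring1, Cbx2, Cbx7, Jarid2 and Kdm2b.

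Among methyltransferases, the 2 highest were Setdb1 and Suv39h2, which both act on lysine 9 of histone H3. Setdb1, which silences transposable elements, stood at 47.4, 52.1 and 44.8 RPKM in WT and 41.6, 47.4 and 51.0 RPKM in KO, with overlapping groups (log2 change -0.05, 95% interval -0.26 to 0.17). Suv39h2, which methylates heterochromatin, had 40.3, 39.9 and 40.0 RPKM in WT and 43.5, 42.1 and 46.7 RPKM in KO. Its KO values all exceeded WT, where the libraries were nearly equal, yet the adjusted p was 0.304 for a log2 change of 0.13 ± 0.06 (SE). The levels of Setdb1 and Suv39h2 overlapped, so their order was not resolved. The paralogue Suv39h1 was near the limit, at 1.22, 0.995 and 0.573 RPKM in WT and 1.02, 0.888 and 0.928 RPKM in KO.

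The euchromatic enzymes Ehmt1 and Ehmt2, also known as GLP and G9a, work as a pair. Ehmt1 stood at 9.15, 8.90 and 8.66 RPKM in WT and 7.59, 8.35 and 7.55 RPKM in KO, a log2 change of -0.17 ± 0.08 (SE; adjusted p = 0.297) with all KO values below WT. Ehmt2 stood at 1.96, 1.53 and 1.58 RPKM in WT and 2.07, 1.91 and 2.06 RPKM in KO, a log2 change of 0.17 ± 0.10 (SE; adjusted p = 0.424). The Ehmt2 values overlapped between genotypes.

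A further set of enzymes methylates lysine 4 of histone H3, a mark of active promoters and enhancers. Kmt2b, an enzyme of this kind that mouse oocytes are known to need, had 3.24, 3.55 and 3.66 RPKM in WT and 4.90, 4.01 and 3.90 RPKM in KO. The groups were apart and replicate 1 was the highest, and the log2 change was 0.23 ± 0.10 (SE; adjusted p = 0.284). Kmt2d, an enhancer methyltransferase, had 6.33 ± 0.320 RPKM in WT against 6.72 ± 0.557 RPKM in KO (n = 3 each, SD). Setd1a stood at 1.83 ± 0.132 and 1.93 ± 0.674 RPKM. This gene shares 52.3% of its exon bases with other annotated genes, 1 of them on the same strand, and the sources used here do not say how such reads were counted. Its relative Setd1b had 0.679, 0.706 and 0.802 RPKM in WT and 1.06, 0.788 and 0.686 RPKM in KO.

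Kmt2a and Prdm9 were the lowest of the 39. Kmt2a was at 0.116, 0.143 and 0.105 RPKM in WT and 0.147, 0.270 and 0.154 RPKM in KO, which rested on 67 to 182 reads. The KO values were higher, but the gene was below the filter, and in the fit without a filter its adjusted p was 0.599. Prdm9, which marks sites of meiotic recombination early in prophase, stood at 0.308, 0.537 and 0.465 RPKM in WT and 0.225, 0.402 and 0.509 RPKM in KO, with overlapping groups.

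The remaining methyltransferases act on lysine 36 or lysine 79 of histone H3. Setd2, which is needed for H3K36 trimethylation in the oocyte, had 5.92 ± 0.1097 RPKM in WT against 5.80 ± 0.820 RPKM in KO (n = 3 each, SD). Nsd1, which acts on the same residue, had 9.09 ± 0.306 and 9.22 ± 0.503 RPKM, a log2 change of 0.02 with a 95% interval of -0.16 to 0.20. Dot1l, the H3K79 methyltransferase, had 5.67 ± 0.597 and 6.35 ± 0.469 RPKM (adjusted p = 0.478). Of the 10 tested methyltransferases, 7 had positive and 3 negative changes, the median was 0.05, and none was called or reached an unadjusted p under 0.05.

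Among demethylases, Kdm1b was the highest. This enzyme removes H3K4 methylation and is needed in mouse oocytes for imprints at a set of genes. It stood at 110.0, 110.4 and 103 RPKM in WT and 65.7, 110.4 and 94.97 RPKM in KO. KO replicate 1 alone was far below the rest, at 0.609 of the WT mean, while the mean of the other 2 KO libraries was 0.952 of it. The log2 change was -0.28 ± 0.17 (SE; adjusted p = 0.388) with all libraries and -0.07 without KO replicate 1. The related Kdm1a, also known as LSD1, was lower, with 19.02 ± 1.22 RPKM in WT against 19.9 ± 1.80 RPKM in KO (n = 3 each, SD).

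The H3K27 demethylase Kdm6a, encoded on the X chromosome, had 29.5, 30.5 and 25.2 RPKM in WT and 25.4, 31.6 and 35.02 RPKM in KO. The groups overlapped (log2 change 0.10, 95% interval -0.19 to 0.39). Kdm6b, which removes the same mark, had 5.37 ± 0.395 RPKM in WT against 5.63 ± 1.68 RPKM in KO. Its value in KO replicate 1, 7.57 RPKM, was the highest, and the 4.75 and 4.58 RPKM of the others lay below all WT values. Kdm4a, which demethylates H3K9 and H3K36, stood at 10.8 ± 1.08 and 11.8 ± 0.425 RPKM (adjusted p = 0.476). Kdm5b, an H3K4 demethylase, was below the filter, with 0.856, 0.691 and 0.572 RPKM in WT and 0.765, 0.724 and 0.875 RPKM in KO. None of the 5 tested demethylases separated the genotypes, with 4 positive changes, 1 negative and a median of 0.06.

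Among deacetylases, Sirt1 had the largest fitted change of the 34 tested genes on the log2(RPKM + 1) scale. By the ratio of the KO to the WT mean, the untested Kmt2a was farther from 1, at 1.56. Sirt1 is an NAD-dependent deacetylase of histones and other proteins, linked to metabolism. It stood at 18.7, 23.1 and 19.7 RPKM in WT and 15.9, 14.7 and 11.3 RPKM in KO, resting on 2612 to 5013 reads. Every KO value was below every WT value, and the KO mean was 0.681 of the WT mean. The log2 change was -0.53 ± 0.13 (SE; 95% interval -0.83 to -0.23; unadjusted p = 0.00389), and the adjusted p of 0.0831 missed the threshold. Over the 15 alternative fits its adjusted p ran from 0.0366 to 0.245. It passed in 2 of them, with library weights (0.0366) and with voom on recovered reads (0.0468), and was 0.0647 without KO replicate 1. The change was smallest without KO replicate 3, at -0.39.

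The class I enzymes Hdac1, Hdac2 and Hdac3 had smaller differences. Hdac2 stood at 32.7, 33.2 and 33.2 RPKM in WT and 31.4, 37.2 and 36.4 RPKM in KO, with 2 KO values above and 1 below the WT range (log2 change 0.08 ± 0.08, SE; adjusted p = 0.627). Hdac1, which overlaps with Hdac2 in function, was lower, at 3.64, 3.78 and 3.45 RPKM in WT and 3.32, 4.28 and 3.82 RPKM in KO, with overlapping groups. Hdac3, the enzyme of the Ncor complexes, had 8.56 ± 0.244 RPKM in WT against 8.21 ± 0.182 RPKM in KO (n = 3 each, SD; log2 change -0.05, 95% interval -0.22 to 0.12). The median change of the 4 deacetylases was 0.00, with 2 positive and 2 negative.

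**Figure D3:**
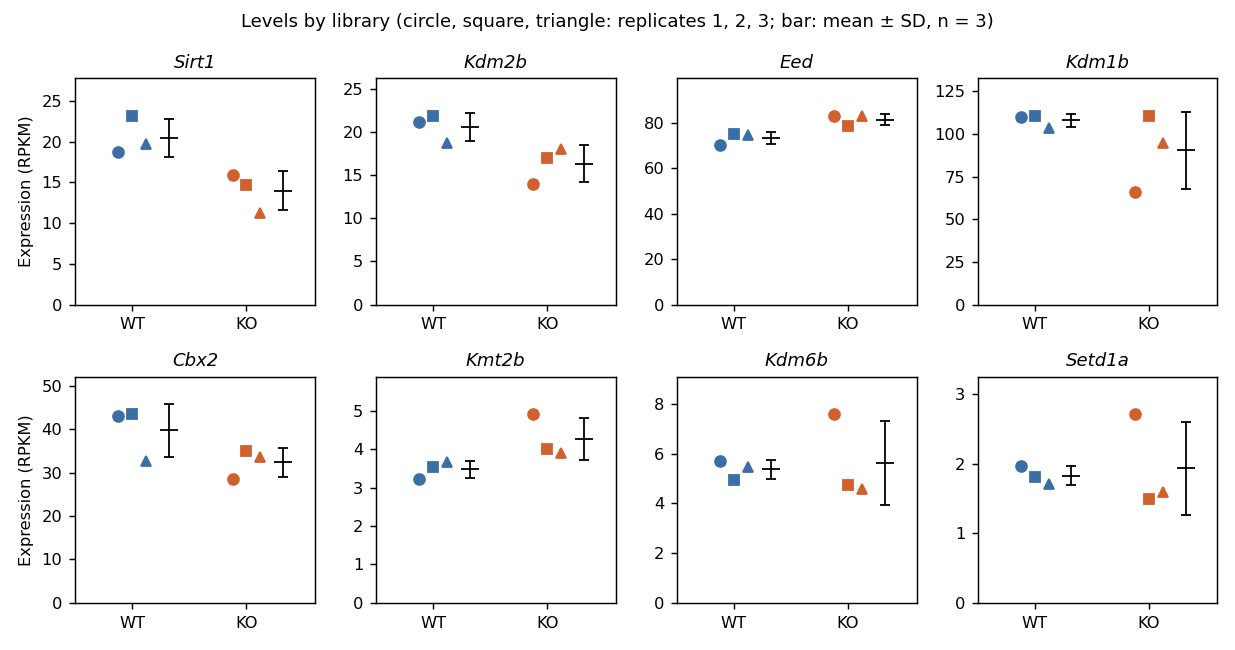
Expression (RPKM, axes from 0) of 8 of the genes in each library, with circles, squares and triangles for replicates 1, 2 and 3 and bars for the mean ± SD (n = 3). The genotypes do not overlap for Sirt1 and Kdm2b, lower in KO, or for Eed and Kmt2b, higher in KO, while Kdm1b, Kdm6b and Setd1a vary mainly through KO replicate 1.

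The other 2 genes differed little. Kat8, also known as MOF, which acetylates lysine 16 of histone H4, stood at 84.9, 83.3 and 94.1 RPKM in WT and 86.4, 83.6 and 89.1 RPKM in KO. The groups overlapped, with a log2 change of -0.02 and a 95% interval of -0.17 to 0.14. Smarca4, also known as BRG1, the ATPase of SWI/SNF remodelling complexes and a maternal-effect gene in the mouse, stood at 13.4, 12.9 and 11.9 RPKM in WT and 13.3, 13.4 and 12.9 RPKM in KO (log2 change 0.05, 95% interval -0.12 to 0.22).

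KO replicate 1, the library set apart on principal component 2, was the lowest of all 6 libraries for 9 of the 34 tested genes, among them Kdm1b, Kdm2b, Ezh1 and Cbx2, and the highest for 10, among them Kdm6b, Setd1a, Kmt2b and Suz12. These shares are near those of all tested genes, of which 20.9% were lowest and 28.7% highest in that library. On the log2(RPKM + 1) scale, its difference from the mean of the other 2 KO libraries was -0.63 for Kdm1b, -0.31 for Kdm2b, 0.60 for Kdm6b and 0.54 for Setd1a. Without it, 4 genes had an unadjusted p under 0.05, beside 20.2% of all tested genes: Sirt1, Kdm2b, Hdac2 and Rnf2. None of the 34 was called, with 2.35% of all tested genes called in that fit. Hdac2 then had a log2 change of 0.15 (unadjusted p = 0.0264, adjusted p = 0.188) and Rnf2 of 0.14 (adjusted p = 0.230).

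**Figure D4:**
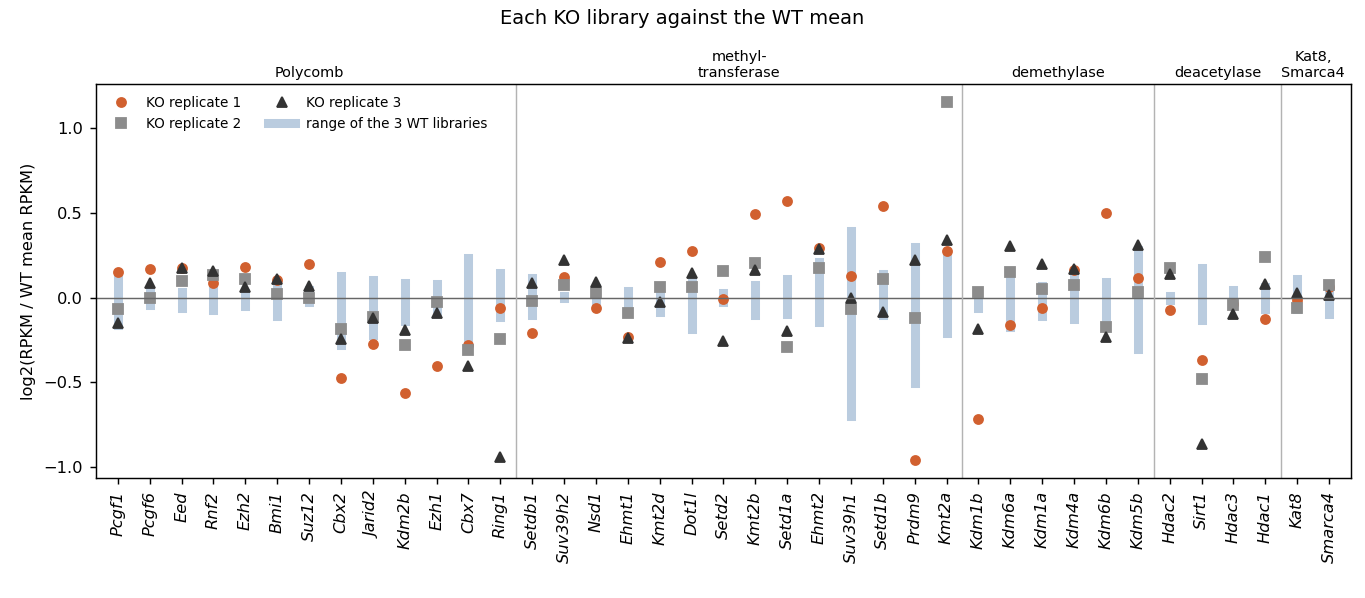
Level of each gene in the 3 KO libraries relative to the WT mean (log2 ratio of RPKM, nothing added), with the range of the 3 WT libraries as a blue bar. KO replicate 1 (orange) leaves the other KO libraries for Kdm1b, Kdm6b and Setd1a, whereas Sirt1 lies below the WT range in all 3 KO libraries. On this scale it also does so for Prdm9, which was below the filter (0.225 RPKM in KO replicate 1 against 0.402 and 0.509).

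Related genes were present at different levels. RPKM is per length, so levels of different genes can be set side by side, but only roughly. The gene lengths used and the handling of shared exons are not given. Setd1a shares 52.3% and Suv39h1 14.6% of exon bases with other annotated genes. In WT, the mean of Rnf2 was 48.2 times that of Ring1, that of Suv39h2 43.1 times that of Suv39h1, that of Kmt2b 28.7 times that of Kmt2a and that of Hdac2 9.11 times that of Hdac1. Kdm1b stood at 5.67 times Kdm1a, Kdm6a at 5.29 times Kdm6b, Ehmt1 at 5.27 times Ehmt2 and Ezh2 at 4.37 times Ezh1. Cbx2 stood at 11.4 times Cbx7, Setd1a at 2.51 times Setd1b and Pcgf1 at 2.13 times Pcgf6. The member that prevailed in WT also prevailed in every KO library in all 11 pairs.

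The log2 ratio did not overlap between genotypes in 3 of the 11 pairs. This is beside 25.8% of all tested genes whose own levels did not overlap, and ratios of other gene pairs were not counted. For Ehmt1 over Ehmt2 it was 2.23, 2.54 and 2.45 in WT and 1.88, 2.13 and 1.88 in KO. For Ezh1 over Ezh2 it was -2.23, -2.07 and -2.08 in WT and -2.71, -2.26 and -2.28 in KO, the latter 2 close to the lowest WT ratio. For Ring1 over Rnf2 it was -5.65, -5.50 and -5.63 in WT and -5.74, -5.97 and -6.68 in KO. These ratios are descriptions and were not tested. For Hdac1 over Hdac2 the mean log2 ratio was -3.19 ± 0.07 in WT and -3.20 ± 0.07 in KO (n = 3 each, SD).

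**Figure D5:**
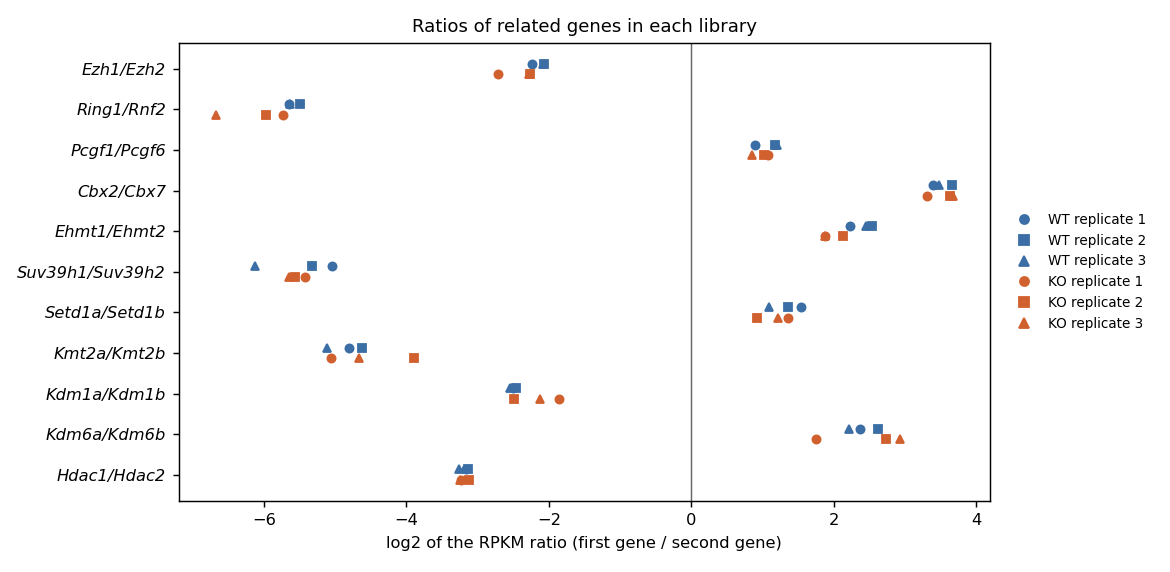
Log2 ratio of RPKM between the genes of 11 related pairs in each library, WT in blue and KO in orange, with the first-named gene in the numerator. The same gene of each pair is higher in all 6 libraries, and the genotypes do not overlap for Ezh1/Ezh2, Ring1/Rnf2 and Ehmt1/Ehmt2.

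In the main fit, no gene was called in the lists of other genes of the same pathways, beside 2.74% of all tested genes. Of 24 tested further Polycomb genes, 13 had positive and 11 negative changes (median 0.02), and the smallest p belonged to L3mbtl2, a subunit of the Pcgf6 complex, at 18.3 ± 0.831 RPKM in WT against 14.8 ± 1.66 RPKM in KO (n = 3 each, SD; log2 change -0.29 ± 0.09, SE; adjusted p = 0.148). Of 27 further methyltransferases and their subunits, 16 were positive and 11 negative (median 0.03), led by Prmt5, an arginine methyltransferase (log2 change 0.27, adjusted p = 0.235). Of 15 demethylases and cofactors, 7 were positive and 8 negative (median -0.03). Among them Rcor1, the corepressor that couples Kdm1a to Hdac1 and Hdac2, stood at 11.2, 10.2 and 11.2 RPKM in WT and 9.07, 8.14 and 8.17 RPKM in KO. All KO values were lower, the log2 change was -0.33 ± 0.08 (SE; adjusted p = 0.0829), and the gene was called in 1 of the 15 alternative fits, that with library weights.

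Of 22 deacetylases and corepressors, 10 were positive and 12 negative (median -0.01), led by Chd4, the ATPase of the NuRD complex, at 10.8 ± 0.728 RPKM in WT against 13.7 ± 1.11 RPKM in KO (n = 3 each, SD; adjusted p = 0.106). Of 19 acetyltransferase genes, 10 were positive and 9 negative (median 0.00; Kat2a, adjusted p = 0.306). Of 22 remodelling genes, 15 were positive and 7 negative (median 0.03), led by Dpf2, a SWI/SNF subunit (log2 change -0.34, adjusted p = 0.0888).

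Of genes known as Polycomb targets, few reached the filter, which 12272 of all 53656 symbols passed. The cause of their low levels was not tested. None of 6 genes imprinted through maternal H3K27 methylation in the mouse embryo, among them Gab1 and Sfmbt2, reached the filter, with means over all libraries of 0.063 to 0.916 RPKM. Of 39 Hox genes, 2 passed the filter, Hoxa7 at 7.44 ± 1.18 RPKM in WT against 8.80 ± 1.63 RPKM in KO, and Hoxd13 at 1.03 ± 0.186 and 1.63 ± 0.252 RPKM (n = 3 each, SD). Neither was called (adjusted p = 0.474 and 0.158).

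The chromosome that carries Khdc3 also carries Setd2, Kmt2a and Smarca4, which lie 37.4, 28.2 and 51.4 Mb from it (GRCm38). Sirt1 lies on chromosome 10 (63319005 to 63381704, minus strand, gene model of GENCODE M21). The Sirt1 promoter window shown above lies inside this span, so its RefSeq start is not the outermost start of the gene model.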

How the data were processed

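The authors deposited 1 table of RPKM values for 6 oocyte libraries. The submitters' processing notes list featureCounts 1.6.2, STAR 2.6.0c, FastQC 0.11.7 and build GRCm38.p6, with no role or order. The strand setting, gene lengths and handling of shared exons are not given in the sources used here. Exon bases shared with another annotated gene were found in 17 of the 39 members. Groups and replicates came from the sample titles.

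On the scale log2(RPKM + 1), linear models were fitted by limma 3.58.1 (R 4.3.3; lmFit, then eBayes with trend) to 12272 genes with 1 RPKM or more in at least 3 libraries, with genotype as the only covariate. Benjamini-Hochberg adjustment ran over all tested genes, with calls made below 0.05. The fit was tested on simulated reads. Read numbers were recovered with exon lengths of GENCODE M21, and all values of a gene came out whole, to a tolerance of 0.01, for 92.4% of the 19677 matched genes that had reads. Voom used the genes with whole reads, which left out Pcgf6 and Hdac3. Python 3.11.15 with pandas 2.3.3 and matplotlib 3.10.9 was used for the rest.

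The members, lists, pairs and tests were chosen with earlier results of these data known. Values in every library are given for members at an unadjusted p under 0.05, the 2 highest and the lowest of each class, the pairs whose ratios do not overlap and members below the filter. Of other lists, called genes or the gene with the smallest p are named. Hoxa7, Gab1, Sfmbt2 and Inha, and the library values of Kmt2b and Rcor1, were added after values were seen. No 2 libraries of a genotype looked like 1 library deposited again, since chi-square over degrees of freedom was at least 14.6. The alternatives were other pseudocounts (0.1 and 0.5), no filter, a 5 RPKM filter, library weights, voom, a block on replicate number, 2 rescalings and each library left out in turn.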

Additional observations from a re-analysis of the deposited data

How the results depend on the processing

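The 34 tested members were refitted under 15 alternatives. In 25 of them the direction was the same in every fit that held the gene, and the 9 others had main changes of at most 0.06 on the log2 scale. The number of members called was 0 in every fit except 1 with library weights and 1 with voom, both times Sirt1 (log2 change -0.60 and -0.57). For members other than Sirt1 the lowest adjusted p in any fit was 0.103. Members at an unadjusted p under 0.05 were 5 of 39 without a filter and 6 of 34 with library weights. They were 7 of 32 with voom and 1 to 5 of 34 when 1 library was left out. In the main fit they were 3 of 34, beside 19% of all tested genes. For the alternatives, that share was counted only without KO replicate 1 (20.2%), so the other counts have no such share beside them. The other chromatin lists held 1 called gene with library weights, Rcor1, beside 5.39% of all genes in that fit. Pairs with ratios that do not overlap numbered 3 to 5 when 1 library was left out. The count of 336 called genes over the whole table (196 higher, 140 lower) became 94 with no filter (48 and 46), 222 with a filter of 5 RPKM (116 higher), 662 with library weights (344 and 318) and 151 to 289 when 1 library was left out (75 to 173 higher, 61 to 151 lower). With the replicate number as a block 320 genes were called, none of them a member. The sample titles do not say whether the numbers pair the libraries. Deviations of same-numbered libraries correlated at -0.02, 0.21 and -0.03, which cannot decide it, since differently numbered libraries were not compared. The cause of these shifts was not tested. At levels near 1 RPKM, the depth and the pseudocount limit what change could be seen.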
